A study of Mesocricetus auratus with 24 samples.

Results

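The cytosolic ribosomal protein genes of the inferior colliculus (IC) were described in 2 hamster strains with and without sound. Members were the genes whose probe set carried a single symbol of the form Rpl or Rps followed by a number, with an a, x or l suffix allowed, or one of the stalk symbols Rplp0, Rplp1 and Rplp2. For a gene with several such probe sets, the one with the highest mean was used. This gave 60 of the 19938 genes tested, 38 of the large subunit and 22 of the small subunit. Of the 80 proteins of the standard mammalian ribosome, 53 were members, 16 were represented by rows shared with other symbols, 9 had no listed symbol, and Rpsa and Fau had rows of their own with symbols outside the pattern. The other 7 members were paralogs.

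RNA from the IC of 24 hamsters (Mesocricetus auratus), all aged 16 weeks and about 60 g in the labels, was read on whole-transcript arrays designed for mouse, in 4 groups of 6 animals. The naïve Syrian group held control Syrian hamsters with no exposure, and the stimulated Syrian group held control Syrian hamsters exposed to sound. The naïve GASH/Sal group held GASH:Sal hamsters, a strain with inherited sound-induced seizures, with no exposure, and the stimulated GASH/Sal group held GASH:Sal hamsters exposed to the same sound. Tissue of stimulated animals was taken 60 min later. The labels call the samples biological replicates, and name the animals in 2 styles, here called label series A (replicates 1 to 3 in all groups) and label series B (replicates 4 to 6). The sources used here do not give the meaning of the styles.

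The ribosome joins a small subunit, which reads the messenger RNA, to a large subunit, which forms the peptide bonds, and each subunit holds its own set of proteins around ribosomal RNA. Many of the messenger RNAs for these proteins start with a run of pyrimidines through which mTOR signalling adjusts their translation as a group. In neurons ribosomes lie in the cell body and also in dendrites and axons, where local translation follows synaptic activity.

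Values were RMA signals on the log2 scale, so that a difference of -0.33 corresponded to 79.4% of the reference level. The probes were designed for mouse and read hamster RNA, so differences were taken between arrays for one gene at a time. Where signals are ranked among genes, the ranks can reflect how well probes match hamster RNA as well as its level. Of the 60 members, 54 had a hamster protein-coding gene of the same symbol, and 51 lay above the median signal of all genes. All 13 neuronal markers tested lay above that median, and 1 of 10 markers of choroid plexus and ependyma did. In bulk tissue, fewer cells of a type and less RNA per cell cannot be told apart. Replicate 6 of the naïve GASH/Sal group stood apart in the members and replicate 4 of the stimulated Syrian group stood apart over all genes, and the values that these arrays moved most are also given without them.

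The mean of the 60 members on each array gave the first view of the groups. In naïve Syrian hamsters it ran from 6.86 to 7.17 with a median of 6.95, and in stimulated Syrian hamsters from 6.80 to 7.07 with a median of 6.93. Naïve GASH/Sal arrays ran from 6.75 to 7.12 with a median of 7.06, and stimulated GASH/Sal arrays from 6.68 to 7.02 with a median of 6.90. All 4 groups overlapped. The spread within each group followed the label series. The 12 arrays of series A lay between 7.005 and 7.17, and those of series B between 6.68 and 6.90 once naïve GASH/Sal replicate 6 was set aside. That array, of series B, stood at 7.08, inside the range of series A, while the other naïve GASH/Sal arrays of series B stood at 6.84 and 6.75. It was above both of them in 45 of 60 members and below both in 9, against 44.0% and 33.3% of all genes.

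**Figure D1:**
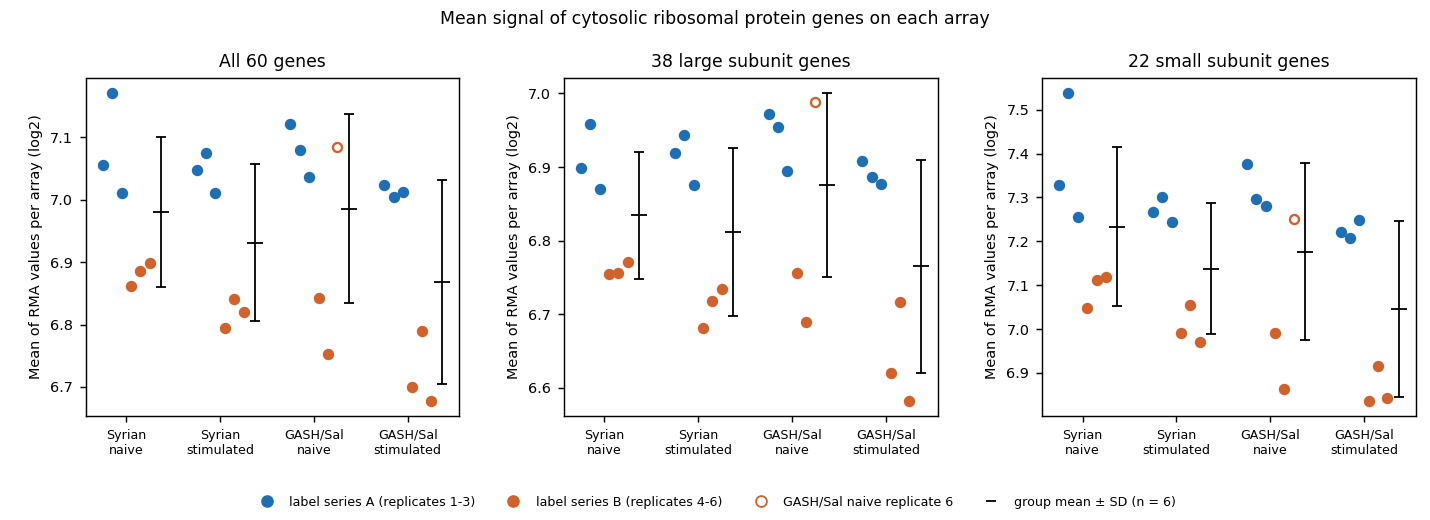
Mean RMA signal (log2, vertical axis) of all 60 genes, of the 38 large subunit genes and of the 22 small subunit genes on each array (24 points per panel, set out by group). Colours give the label series and black marks the group mean and SD (n = 6). Series A and series B separate in every group except for the open point, naïve GASH/Sal replicate 6, which lies at 7.08 in the first panel.

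The first comparison asked how these genes differed after sound in the seizure-prone strain. The paper describes seizures in its stimulated GASH/Sal animals and none in its stimulated controls. Sound and any seizure that followed it cannot be told apart in this comparison. In GASH/Sal hamsters 52 of 60 members lay lower after sound, against 44.2% of all genes, with a median log2 difference of -0.10, against 0.013 over all genes. The members with the lowest p were Rpl24, Rps25 and Rps29, and the members below 0 came from both subunits, 33 of 38 large and 19 of 22 small. No member passed the test over all genes (limma, adjusted p = 0.993 for the lowest), nor did any of the 19938 genes (0%). At an unadjusted p under 0.05, 11 members were lower and 0 higher, against 1.58% and 2.88% of all genes. These 11 were Rpl24, Rps25, Rps29, Rps12, Rps21, Rpl27a, Rpl8, Rpl19, Rps9, Rpl38 and Rps6. The naïve and stimulated arrays overlapped in every member, while they stood apart in 0.0752% (stimulated lower) and 0.15% (stimulated higher) of all genes.

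Rpl24, a large subunit protein at a bridge between the subunits, ran from 8.65 to 9.08 in naïve GASH/Sal hamsters, with a median of 9.06, and from 8.30 to 8.78 in stimulated ones, with a median of 8.70. All 6 stimulated arrays lay below the naïve mean, but the groups overlapped because naïve replicate 5 was low. The difference was -0.33 (SE 0.0842, 95% interval -0.50 to -0.16, adjusted p = 0.993 in limma). With each array left out it ran from -0.38 to -0.28. Among the arrays of series A it was -0.35 and among those of series B -0.31. In series B naïve replicate 6 stood at 9.04, above replicates 4 (8.87) and 5 (8.65), and the series B value is not given here without it.

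Rps25, a small subunit protein needed for initiation at several internal ribosome entry sites, ran from 6.998 to 7.90 in naïve GASH/Sal hamsters (median 7.58) and from 6.71 to 7.48 in stimulated ones (median 7.16). The stimulated arrays again all lay below the naïve mean, with overlap. The difference was -0.37 (SE 0.0941, 95% interval -0.56 to -0.18, adjusted p = 0.993 in limma). Series A alone gave -0.38, series B alone -0.36, and series B without naïve replicate 6 gave -0.19.

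Rps29, a small zinc-binding protein of the small subunit, ran from 7.94 to 9.499 in naïve GASH/Sal hamsters (median 9.29) and from 7.75 to 9.06 in stimulated ones (median 8.52). Its wide range came with the label series, since within series A the naïve arrays all lay above the stimulated ones. The difference was -0.47 (SE 0.137, 95% interval -0.75 to -0.19, adjusted p = 0.999 in limma), and in series B it was -0.46 with naïve replicate 6 and -0.11 without it.

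Rps12, also of the small subunit, differed by -0.35 (SE 0.111) and Rps9, the counterpart of bacterial S4, by -0.30 (SE 0.131), each with an adjusted p of 0.999 in limma. Rps9 was lower than the naïve mean in all 6 stimulated arrays and Rps12 in 5 of 6. The other probe set of Rps9, of nearly the same mean signal, gave 0.0053, so the 2 probe sets of this gene disagreed. Beyond these, Rps21 differed by -0.27 (SE 0.0923) and Rpl27a by -0.25 (SE 0.0972). Rpl38, which is known for its part in the translation of Hox messengers, differed by -0.24 (SE 0.113), and by -0.088 once naïve replicate 6 was left out. The 8 members above 0 were Rpl10l, Rpl26, Rpl30, Rpl3l, Rpl4, Rps19, Rps27l and Rps4l, and the highest was Rps27l at 0.13 (SE 0.102), or 0.059 without stimulated replicate 4.

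The size of the shift depended on the arrays used. Without naïve replicate 6 the median in GASH/Sal was -0.078, with 42 of 60 members below 0 and 7 lower at an unadjusted p under 0.05. Within series A it was -0.053 with 35 members below 0, within series B -0.18 with 54, and within series B without that array -0.078 with 47. Over all genes the median was 0.015 without that array, 0.020 in series A and 0.0068 in series B. The shares of all genes below 0 or lower are not given here for these settings.

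**Figure D2:**
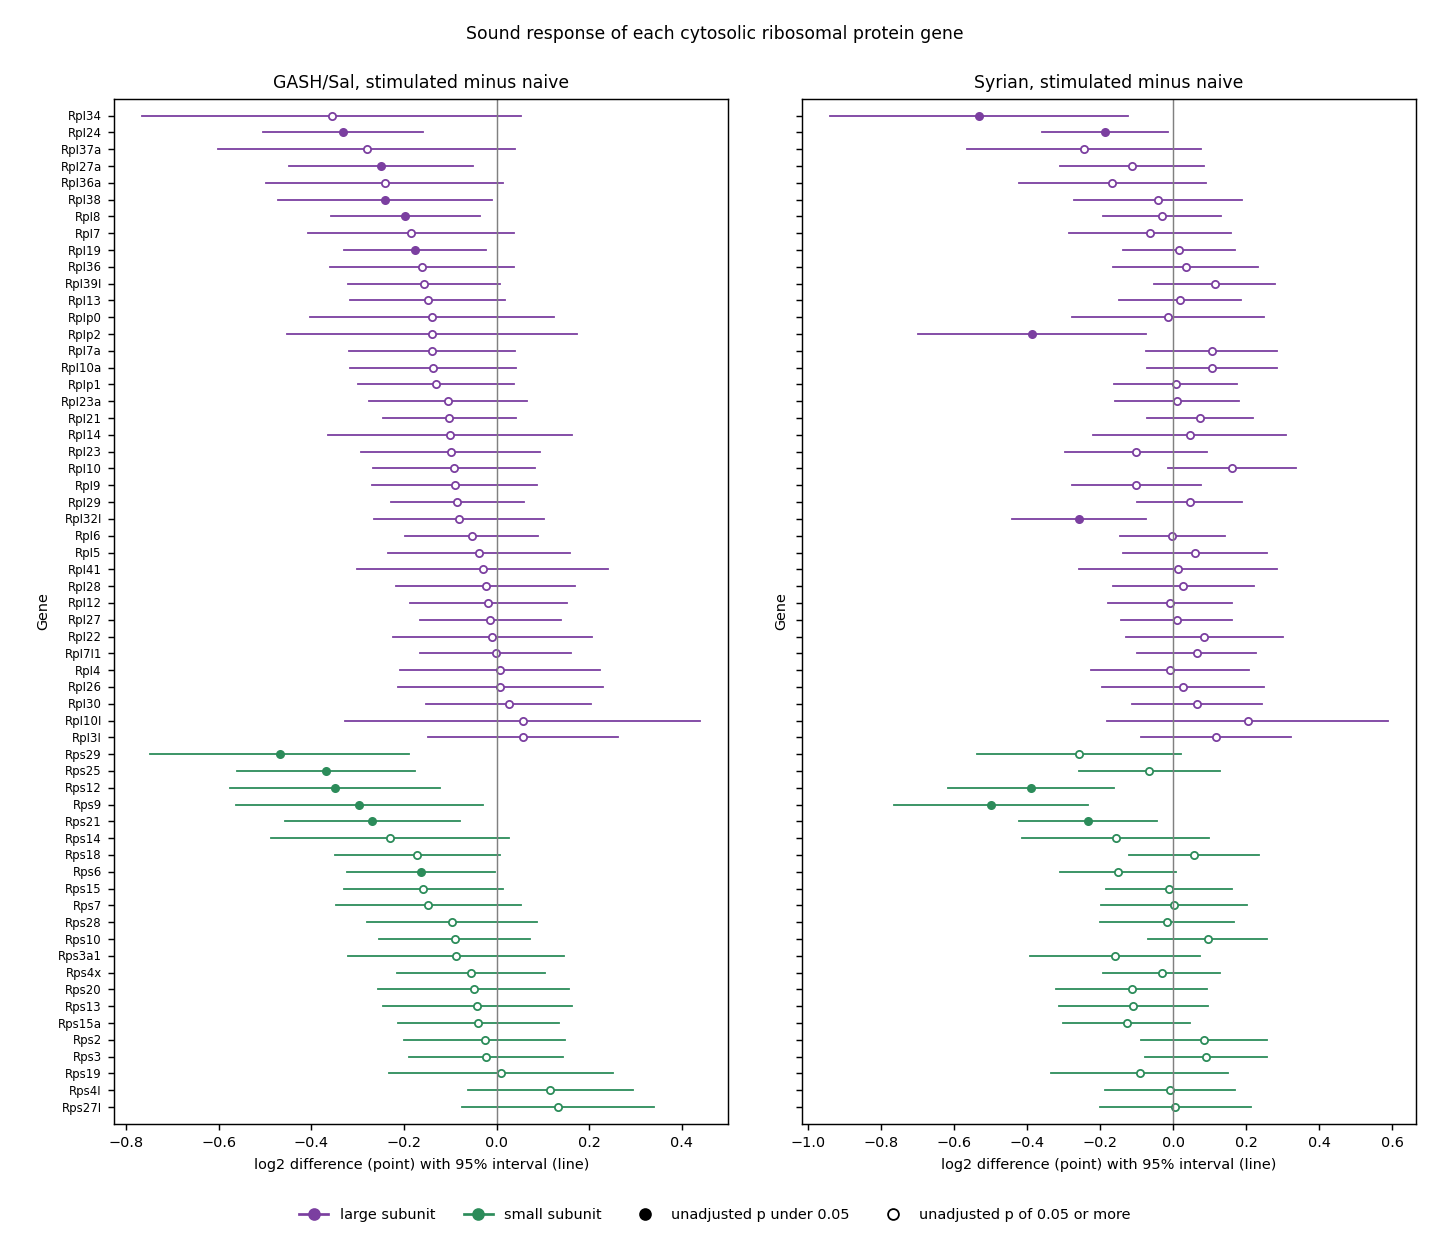
Log2 difference between stimulated and naïve hamsters (horizontal axis, point) with its 95% interval (line) for each of the 60 genes, in GASH/Sal (left) and Syrian hamsters (right), ordered within each subunit by the GASH/Sal value; filled points had an unadjusted p under 0.05. The points lie below 0 for 52 genes in GASH/Sal and for 32 genes in Syrian hamsters, and no gene passed the adjusted test.

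In control Syrian hamsters exposed to the same sound, 32 of 60 members lay below 0, against 42.5% of all genes, and the median log2 difference was -0.0094, against 0.019 over all genes. The lower values sat in a few genes, led by Rps9, Rps12, Rpl32l and Rpl34, with 7 members lower and 0 higher at an unadjusted p under 0.05, against 2.29% and 4.35% of all genes. No member passed over all genes (lowest adjusted p = 0.600 in limma), and 0 of 19938 genes did.

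Rps9 ran from 6.73 to 7.72 in naïve Syrian hamsters (median 6.86) and from 5.98 to 6.74 in stimulated ones (median 6.53). Every stimulated array lay below the naïve mean, and the groups overlapped only where stimulated replicate 5 lay just above the lowest naïve array. The difference was -0.50 (SE 0.131, 95% interval -0.77 to -0.23, adjusted p = 0.600 in limma), and each series alone gave -0.62 (A) and -0.38 (B). The highest naïve array, replicate 2, and the lowest stimulated array, replicate 4, each stood apart from their group, and the difference was -0.36 when naïve replicate 2 was left out. The other Rps9 probe set, with a mean signal of 6.69 against 6.74 for the one used, gave 0.10, the opposite sign, so every Rps9 value here belongs to 1 of 2 probe sets that disagreed.

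Rps12 ran from 7.77 to 8.92 in naïve Syrian hamsters (median 7.98) and from 7.31 to 8.10 in stimulated ones (median 7.77), and all 6 stimulated arrays lay below the naïve mean. The difference was -0.39 (SE 0.111, adjusted p = 0.637 in limma), or -0.29 without naïve replicate 2, the highest naïve array. Rpl24 was the 1 member whose Syrian groups did not overlap, as for 0.0953% of all genes in that direction and 0.196% in the other: its naïve arrays ran from 8.72 to 9.19 (median 8.77) and its stimulated arrays from 8.54 to 8.70 (median 8.66). Its difference was -0.19 (SE 0.0842, adjusted p = 0.740 in limma), or -0.13 without naïve replicate 2, again the highest naïve array. The lowest naïve array lay only just above the highest stimulated one. Rps25 showed no such shift here, at -0.066 (SE 0.0941, 95% interval -0.26 to 0.13). Rps29 stood at -0.26 (SE 0.137), and Rpl34 at -0.53 (SE 0.200), with stimulated replicate 4 at 4.56 and the other stimulated arrays up to 6.64. Without that array Rpl34 stood at -0.29.

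Set side by side, 29 members lay below 0 in both strains, 23 in GASH/Sal alone, 3 in Syrian hamsters alone and 5 in neither. The members lower at an unadjusted p under 0.05 in both strains were Rpl24, Rps9, Rps12 and Rps21, 4 of the 11 in GASH/Sal and 4 of the 7 in Syrian hamsters. Taken singly, 1.58% of all genes were lower in GASH/Sal and 2.29% in Syrian hamsters. The shares of all genes lower in both, or below 0 in both, are not given here, so the joint counts describe the members alone. Averaged over both strains, the median was -0.059 against 0.015 over all genes, and 14 members had an unadjusted p under 0.05, all of them lower, against 2.17% lower and 5.22% higher among all genes. Of the members 46 lay below 0, against 41.7%, and 0 passed over all genes, against 0.00502%. Rps12 had the lowest adjusted p of that average (-0.37, SE 0.0785, adjusted p = 0.130 in limma), followed by Rpl24 (-0.26, SE 0.0595, adjusted p = 0.165) and Rps9 (-0.40, SE 0.0924, adjusted p = 0.170). Within series A alone, 4 members passed this averaged test, Rps29 (-0.42, adjusted p = 0.00765), Rpl34 (-0.47, adjusted p = 0.0288), Rps9 (-0.48, adjusted p = 0.0334) and Rpl24 (-0.29, adjusted p = 0.0478), and 0 did in series B. Of all genes, 0.532% passed as lower and 1.7% as higher in series A, and 0% in series B. Series A holds naïve Syrian replicate 2, which stood high for Rps9 (7.72, others 6.73 to 6.89) and Rpl24 (9.19, others 8.72 to 8.81). The series A values are not given here without that array.

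**Figure D3:**
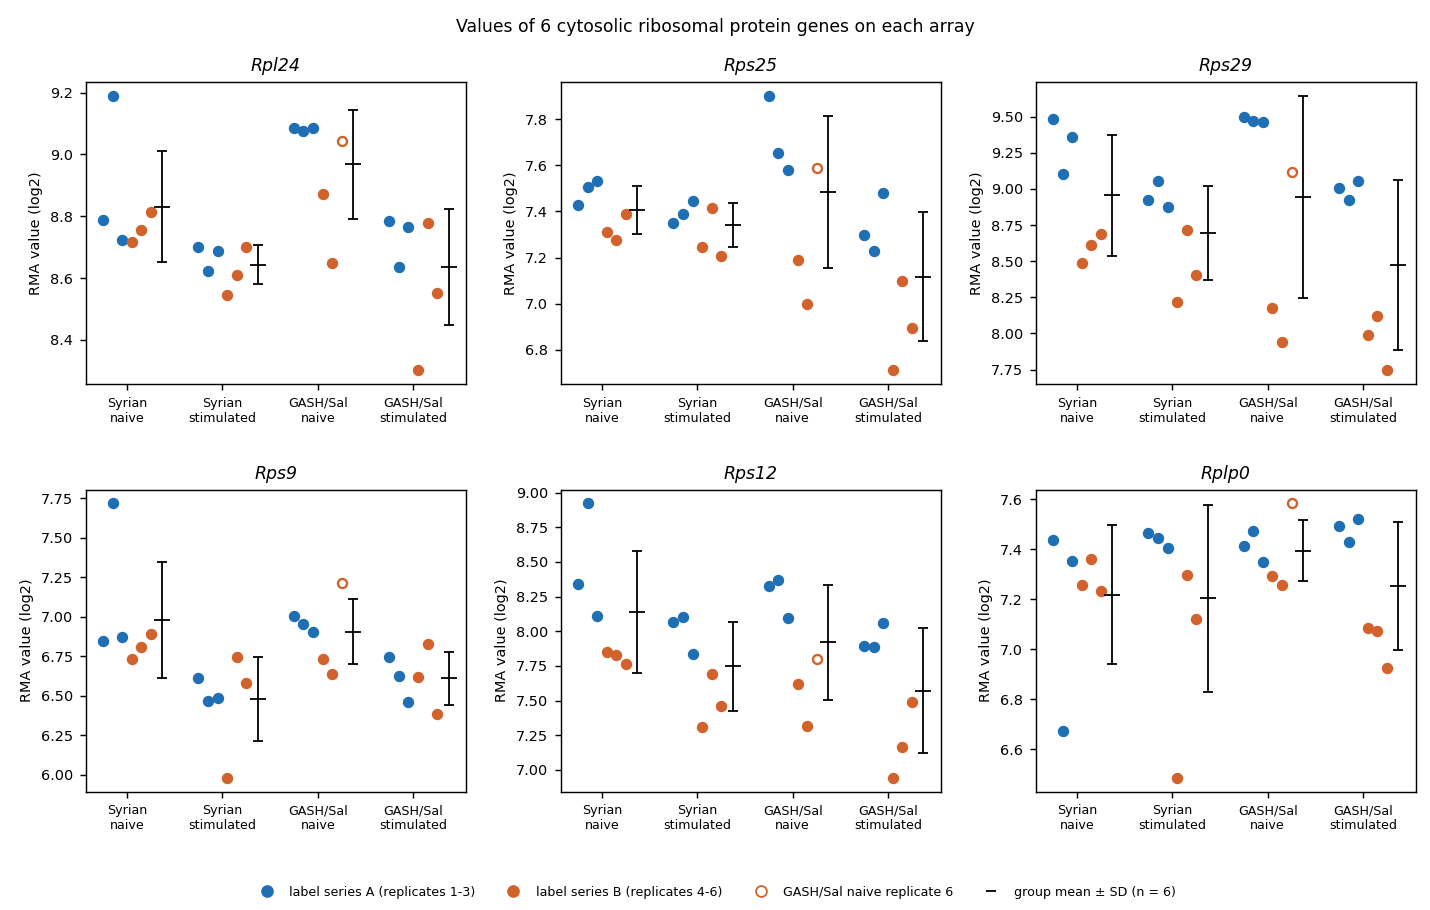
RMA signal (log2, vertical axis) of Rpl24, Rps25, Rps29, Rps9, Rps12 and Rplp0 on each array (24 points per panel, set out by group). Colours give the label series and black marks the group mean and SD (n = 6). Stimulated arrays lie low for Rpl24 and Rps9 in both strains and for Rps25 in GASH/Sal hamsters, while Rps29 separates by label series within every group.

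The difference of the 2 sound responses was used to test whether the response differed between the strains. Strain and any seizure in stimulated GASH/Sal hamsters cannot be told apart in this difference. Its median over the members was -0.076, against -0.0030 over all genes, with 45 of 60 members below 0, against 51% of all genes. No member passed (lowest adjusted p = 0.99996 in limma, 0 of 19938 genes), and 3 were lower at an unadjusted p under 0.05, against 1.93% of all genes, and 0 higher, against 1.75%. These were Rpl39l (-0.27, SE 0.114), Rps25 (-0.30, SE 0.133) and Rpl10 (-0.25, SE 0.121), a protein of late large subunit assembly. Rpl39l lay on a dim probe set (percentile 9.17 of signal) and had no hamster protein-coding gene of that symbol. Its value was -0.47 in series B and -0.069 in series A. The interval for Rps25 was -0.57 to -0.031. The median was -0.046 without naïve GASH/Sal replicate 6, -0.026 without it and stimulated Syrian replicate 4, and -0.0092 in series B without it, so that a difference between the strains was not shown.

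Between the strains without sound, members differed little and in no common direction. The median of naïve GASH/Sal minus naïve Syrian hamsters was 0.0072, with 24 of 60 members below 0, against 54.2% of all genes, and it turned to -0.038 with 38 below 0 without naïve GASH/Sal replicate 6. The 3 members lower at an unadjusted p under 0.05, against 3.74% of all genes, were Rps27l, Rps3a1 and Rps15a, and 0 were higher, against 2.29%. No member's groups stood apart, against 0.186% (GASH/Sal lower) and 0.0853% (GASH/Sal higher) of all genes. Rps27l, a p53-responsive paralog of Rps27, ran from 5.06 to 5.39 in naïve Syrian hamsters (median 5.25) and from 4.61 to 5.22 in naïve GASH/Sal hamsters (median 4.91). The groups overlapped, and the difference was -0.28 (SE 0.102, adjusted p = 0.764 in limma). Rps3a1 differed by -0.29 (SE 0.114) and Rps15a by -0.21 (SE 0.0851), the last on a dim probe set.

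After sound, GASH/Sal hamsters lay below Syrian hamsters in 47 of 60 members, against 56.0% of all genes, with a median of -0.075 against -0.014. There were 5 members lower at an unadjusted p under 0.05, against 3.6% of all genes, and 0 higher, against 1.82%. None passed over all genes (lowest adjusted p = 0.896 in limma). Rpl29, a small basic protein of the large subunit, was the 1 member whose groups did not overlap, as for 0.125% of all genes in that direction. It ran from 6.68 to 6.84 in stimulated Syrian hamsters (median 6.71) and from 6.49 to 6.64 in stimulated GASH/Sal hamsters (median 6.59), a difference of -0.16 (SE 0.0703, adjusted p = 0.901). Where rows of several symbols were allowed, a brighter row stood for Rpl29 and gave -0.045. Rps28 differed by -0.23 (SE 0.0899), at -0.44 in series B and -0.022 in series A, and Rps25 by -0.22 (SE 0.0941), at -0.39 and -0.060. The other members were Rpl7l1 (-0.18, SE 0.0799, or -0.11 without stimulated GASH/Sal replicate 6) and Rpl39l (-0.17, SE 0.0807), the last on a dim probe set. Each stimulated group is shared between this comparison and a sound comparison, so these values are not independent of those above. Averaged over both sound conditions, 40 of 60 members were lower in GASH/Sal, against 57.4% of all genes, with 7 lower and 0 higher at an unadjusted p under 0.05, against 5.06% and 2.93%, and 0 passed over all genes, against 0.01%.

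**Figure D4:**
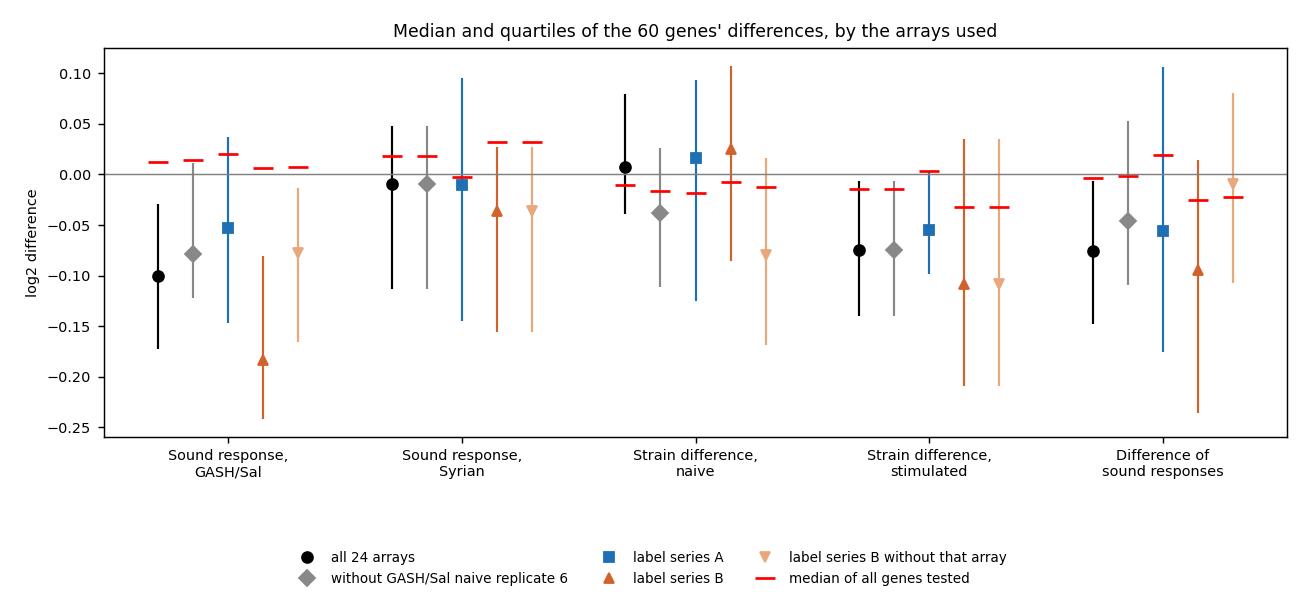
Median (symbol) and quartiles (line) of the log2 differences of the 60 genes in 5 comparisons, for all 24 arrays, without naïve GASH/Sal replicate 6 and within each label series, with red bars for the median of all 19938 genes on the same arrays. The sound response in GASH/Sal lies between -0.18 and -0.053 throughout, whereas the naïve strain difference changes sign without that array.

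The large and the small subunit had medians of -0.10 and -0.093 in GASH/Sal hamsters after sound. In Syrian hamsters they stood at 0.011 and -0.079, with 16 of 38 large and 16 of 22 small subunit members below 0. The large minus the small subunit median there ran from 0.055 to 0.11 with each array left out. On naïve Syrian replicate 2 the large minus the small subunit mean was -0.58, the lowest of its group (median -0.37). Between naïve strains the medians were 0.051 and -0.018, and between stimulated strains -0.064 and -0.10. For the difference of the sound responses they were -0.11 and -0.030. Without naïve GASH/Sal replicate 6 the large and small subunit medians were -0.078 and -0.077 in GASH/Sal hamsters after sound, -0.016 and -0.10 between naïve strains, and -0.058 and 0.012 for the difference of the sound responses, so that some of them changed sign. These are descriptions of the 2 lists, and no test of one subunit against the other was made.

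The stalk proteins Rplp0, Rplp1 and Rplp2, which recruit the elongation factors to the large subunit, gave -0.14 (SE 0.129), -0.13 (SE 0.0826) and -0.14 (SE 0.153) in GASH/Sal hamsters after sound. Without naïve replicate 6 these became -0.079, -0.065 and -0.078, and Rplp2 stood at -0.021 without stimulated replicate 4. In Syrian hamsters Rplp2 differed by -0.39 (SE 0.153, adjusted p = 0.719 in limma), or -0.25 without stimulated replicate 4, while Rplp0 stood at -0.015 (SE 0.129) and Rplp1 at 0.0069 (SE 0.0826). Rplp0 ran from 6.49 to 7.47 in stimulated Syrian hamsters (median 7.35) and from 6.67 to 7.44 in naïve ones (median 7.30). A single array in each, stimulated replicate 4 and naïve replicate 2, made the low end, and the Syrian difference of Rplp0 turned to 0.11 without the stimulated array.

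Rps6, the small subunit protein phosphorylated by S6 kinase downstream of mTOR, ran from 9.33 to 9.86 in naïve GASH/Sal hamsters (median 9.63) and from 9.12 to 9.64 in stimulated ones (median 9.49). The ranges overlapped, and the difference was -0.16 (SE 0.0782, adjusted p = 0.999 in limma). In Syrian hamsters the difference was -0.15 (SE 0.0782, adjusted p = 0.754).

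The 7 paralogs were Rpl10l, Rpl3l, Rpl39l, Rps27l, Rpl32l, Rpl7l1 and Rps4l. Among them Rpl10l and Rpl39l are best known from the testis and Rpl3l from muscle. Their median was 0.056 in GASH/Sal hamsters after sound, with 3 of 7 below 0, where the 53 standard proteins had a median of -0.10 with 49 below 0. In Syrian hamsters the medians were 0.064 and -0.011. The Syrian difference of Rpl32l was -0.26 (SE 0.0897), and Rpl39l differed by -0.16 (SE 0.0807) in GASH/Sal and 0.11 (SE 0.0807) in Syrian hamsters. None of these passed over all genes. Rpl10l, Rpl3l, Rpl39l, Rpl32l and Rpl7l1 lay below the median signal of all genes, with Rpl39l the dimmest at percentile 9.17. Rps4l stood at 0.12 in GASH/Sal. Its other probe set, with a mean signal of 5.79 against 5.86 for the one used, gave -0.098. The count of paralogs below 0 therefore depended on the probe set.

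With all 24 arrays, differences of members passed the test over all genes only between the label series, among the comparisons made. The comparison of series B with series A, taken from the same fit, was added after seeing the data. In series B 30 of 60 members were lower (limma, adjusted p under 0.05) and 0 were higher, whereas of all genes 1.02% were lower and 5.87% higher. The median was -0.22 against 0.028 over all genes, and 50 of 60 members lay below 0. Without naïve GASH/Sal replicate 6 the count was 35. Leaving out each array in turn, it ran from 26 to 35.

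Small subunit genes were lower in 16 of 22 cases and large subunit genes in 14 of 38. Rps29 was lower by the largest amount, at -0.83 (SE 0.0966, adjusted p = 3.68e-06 in limma), followed by Rpl37a (-0.65, SE 0.111, adjusted p = 0.000361) and Rps12 (-0.65, SE 0.0785, adjusted p = 7.04e-06). Rpl19 was lower by less but with little spread (-0.51, SE 0.0531, adjusted p = 1.06e-06). Rps3a1, Rps14, Rpl7 and Rps20 lay between -0.52 and -0.48. At the other end were Rpl14 at 0.18 (SE 0.0915, adjusted p = 0.276) and Rplp1 at 0.076 (SE 0.0584), which did not pass. Because each group held 3 arrays of either series, the series does not coincide with strain or sound.

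**Figure D5:**
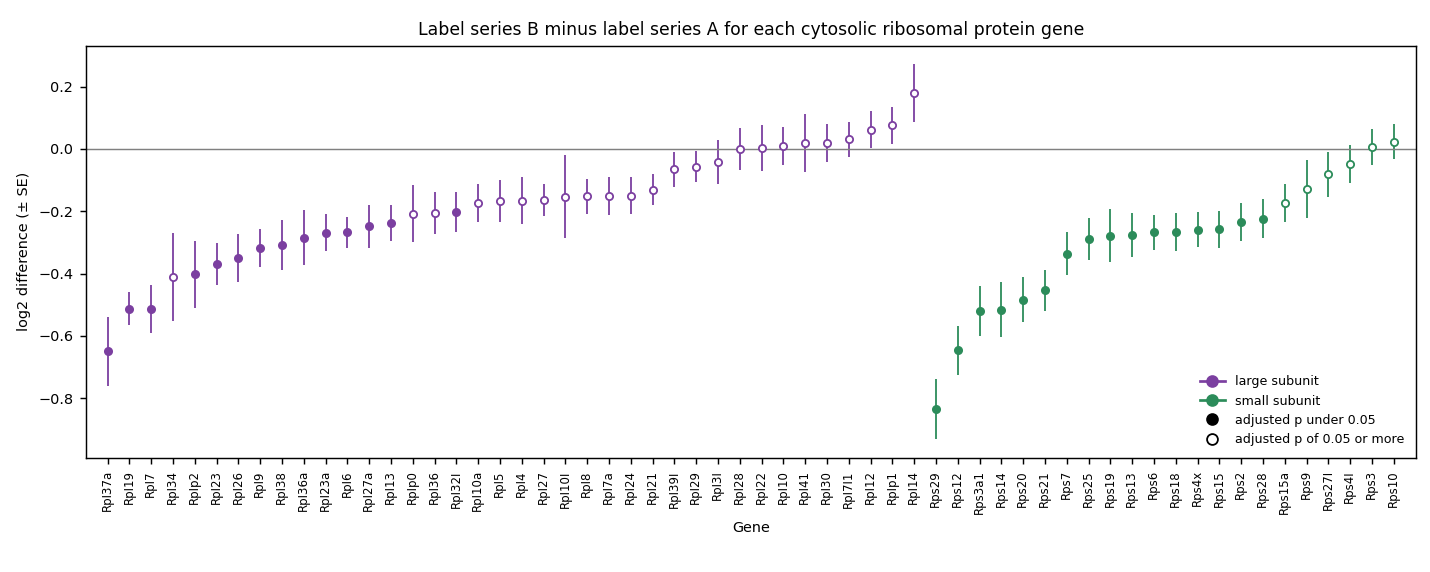
Log2 difference between label series B and label series A (vertical axis, point) with its SE (line) for each of the 60 genes, ordered within each subunit; filled points had an adjusted p under 0.05 over all 19938 genes. Filled points, 14 of the large and 16 of the small subunit, all lie below 0, from Rps29 at -0.83 to the genes near -0.20.

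The position of naïve GASH/Sal replicate 6 was compared with this pattern. Series genes were chosen without that array, and 0 stood for the mean of series B and 1 for that of series A. Its median position over the 35 series members was 1.06, with 26 of 35 nearer to series A. Over the 169 other genes lower in series B it stood at 0.045, with 40.8% nearer to series A, and over the 1024 genes higher in series B at -0.89, with 14.4% nearer. The other naïve GASH/Sal arrays of series B, replicates 4 and 5, had positions of 0.096 and -0.15 over the members. Over the 169 other genes they stood at 0.58 and 0.084, with 55.6% and 25.4% nearer to series A, so that replicate 4 lay nearer to series A there than replicate 6 did. Replicates 4 and 5 had also helped to choose the genes and to set the mean of series B, which replicate 6 had not, so the positions are not on equal terms. Genes of the mitochondrial ribosome were high on replicate 6 as well, above both neighbouring arrays in 47 of 77 cases and below both in 6, and their mean there, 5.25, was the highest of the 24 arrays.

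Markers of other cell types were read beside these values. All 10 vessel markers and 9 of 10 cerebellar markers were above 0 in series B, with medians of 0.10 and 0.14, and 8 of 11 oligodendrocyte markers were, with a median of 0.15. Of the 13 neuronal markers 8 were above 0, with a median of 0.061. Of all 19938 genes, 7541 lay below 0 in series B. So did 2 of 9 astrocyte, 3 of 9 microglia, 5 of 10 choroid plexus and ependyma and 1 of 2 blood markers. Higher in series B over all genes (limma, adjusted p under 0.05) were 5 of 13 neuronal, 3 of 11 oligodendrocyte, 2 of 10 cerebellar, 1 of 10 vessel and 1 of 9 astrocyte markers, against 5.87% of all genes, and 1 of 2 blood markers was lower. In naïve GASH/Sal replicate 6 the vessel markers were above both neighbouring arrays in 8 of 10 cases, against 44% of all genes. After sound, 9 of 11 oligodendrocyte markers were above 0 in GASH/Sal (median 0.10) and 10 of 11 in Syrian hamsters (median 0.10). Below 0 were 6 of 9 astrocyte markers in GASH/Sal (median -0.050) and 1 of 9 in Syrian hamsters (median 0.034). Of all genes, 44.2% and 42.5% were below 0 in these 2 comparisons. The neuronal markers had medians of -0.013 and 0.020. No marker passed over all genes in either sound comparison, and the part of cell composition in the members' values was not tested.

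Genes that work with the ribosome had medians near that of all genes in GASH/Sal hamsters. The 44 translation factors had a median of 0.011 after sound, with 21 below 0, and the 58 ribosome assembly genes a median of 0.0096, with 25 below 0. Regulators of the mTOR and MYC pathways had a median of 0.033, with 11 of 33 below 0. The 77 proteins of the mitochondrial ribosome, a separate machine with its own protein set, had a median of -0.019, with 42 below 0. In Syrian hamsters the 4 medians were 0.078, 0.051, 0.039 and 0.036. No gene of these lists passed over all genes in either sound comparison.

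Of each list, the gene with the lowest p was taken. In GASH/Sal hamsters Ddit4, an mTOR inhibitor induced by stress, differed by 0.27 (SE 0.0879), Gspt1, a translation termination factor, by 0.23 (SE 0.0892), and Mrpl42 by -0.36 (SE 0.149). Sbds, a factor of late large subunit maturation, differed by 0.14 (SE 0.0700). In Syrian hamsters Eif2s3x, a subunit of the initiation factor that brings the first tRNA, differed by 0.30 (SE 0.106), Nop56, a nucleolar protein, by 0.26 (SE 0.0942), Mycn by 0.16 (SE 0.0840), and Mrps11 by -0.37 (SE 0.0860, adjusted p = 0.570 in limma). Lower in series B (limma, adjusted p under 0.05) were 2 of 44 translation factors, 1 of 58 assembly genes and 1 of 77 mitochondrial ribosome genes. Higher were 4, 0 and 1 of them, and of the 33 regulators of mTOR and MYC 0 were lower and 3 higher. Of all genes 1.02% were lower and 5.87% higher, and of the 60 members 30 were lower and 0 higher.

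Members were also split by the brightness of their probe set. In GASH/Sal hamsters after sound, all 36 members above the 90th percentile of signal lay below 0, with medians of -0.14 for the 24 up to the 99th percentile and -0.14 for the 12 in the top percentile, where all genes had medians of 0.016 and 0.019. The 9 members below the median signal had a median of -0.040, with 6 below 0. In Syrian hamsters 20 of the 36 bright members lay below 0. Their medians in the same ranges were -0.00068 and -0.072, against 0.030 and 0.055 over all genes. The shares of all genes below 0 in these ranges are not given here, so the counts describe the members alone.

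Further probe sets of the same genes were read as well. For the 38 members with further single-symbol probe sets, 144 of 152 of these had the sign of the probe set used in the GASH/Sal sound response, with a median of -0.16. In Syrian hamsters 111 of 152 did. For Rpl41 and Rps28 some of these were identical to the probe set used in mean and every difference, so their agreement was fixed in advance. For Rps12, Rpl23a and Rpl27 some repeated one another. The matching share over all genes is not given here. Probe sets of one gene share its RNA and are not independent, and members with many related copies in the genome may share signal between them.

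The members also varied together after group and series means were removed. Their mean pairwise correlation over the 24 arrays was 0.14, against 0.011 for all genes, and it was 0.073 without naïve GASH/Sal replicate 6. The translation factors had 0.16 and 0.21, above the members on both counts, and the mitochondrial ribosome genes 0.049 and 0.017. Small subunit pairs had a mean of 0.19 and large subunit pairs 0.11, or 0.14 and 0.044 without naïve GASH/Sal replicate 6. Rps13 (0.87), Rps7 (0.85) and Rpl36a (0.83) followed the mean of the other members most closely, while Rpl5 (-0.33), which carries 5S RNA into the large subunit, and Rpl21 (-0.31) ran against it. These values of single members include naïve GASH/Sal replicate 6 and are not given here without it. On that array Rpl5 (7.95) and Rpl21 (9.60) were at the lowest value of their group. Outside the members, the 10 genes most like the member mean were Dtx3 (0.86), Atp5h, Camk2n1, Park7, Hnrnpl, Bcan, Cox5b, Sdhb, Maz and H4c14 (0.81), and without that array the values were 0.58 to 0.70. All of these correlations share the arrays and their scaling, and are descriptions.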

How the data were processed

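Per the labels, RNA was purified with TRIzol and a column kit, kept where the RNA integrity number passed the study's limit, and labelled for whole-transcript arrays. The deposited values are log2 probe set signals after RMA (version not given in the submitters' processing notes), a method that corrects background, normalises between arrays and summarises probes. Of 35556 probe sets, 21789 carried 1 symbol, 1621 several and 12146 none listed. The brightest single-symbol probe set was kept for each gene, and dim genes were not removed. Array medians ran from 4.50 to 4.65. Precision is limited by the number of arrays, since signals carry no read depth.

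Differences were estimated with limma 3.58.1 in R 4.3.3, in 1 fit of the 4 groups with the label series as a covariate (19 residual degrees of freedom), with Benjamini-Hochberg adjustment over 19938 genes. The fit was also run on simulated data with independent noise for each gene, which checked the code and not the results given here. The p-values measure the spread between these samples. The members, gene lists and tests were chosen with earlier results of these data known. Named members were Rpl24, Rps25, Rps29, Rps9, Rps12, the stalk genes, Rps6, the paralogs, and the 3 with the lowest p in each of 5 comparisons, with the lowest-p gene of each other list and sound comparison and the 10 genes most like the members. Other names were chosen after their values were seen. The alternatives tried are in the closing section. Sequences were not used here.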

Additional observations from a re-analysis of the deposited data

Results flagged for a closer look

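Single arrays lay far from the other 5 of their group in 9 of 96 checks of member means and named members, where chance flags about 1 in 20 groups. Naïve Syrian replicate 2 stood high for Rpl24 (9.19, others 8.72 to 8.81) and Rps9 (7.72, others 6.73 to 6.89), and low for Rplp0 (6.67, others 7.23 to 7.44). Stimulated Syrian replicate 4 stood high for Rpl10l (5.64, others 4.41 to 4.71) and Rps4l (6.31, others 5.74 to 5.86), and low for Rplp0 (6.49, others 7.12 to 7.47) and Rps9 (5.98, others 6.47 to 6.74). Stimulated Syrian replicate 6 stood low for Rps28 (8.47, others 8.64 to 8.71). Naïve GASH/Sal replicate 6 stood high for Rplp1 (10.6, others 10.1 to 10.2).

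The Syrian difference of Rps9 therefore rests in part on 2 arrays, and it was -0.50 with all arrays and -0.36 without naïve replicate 2. Over all genes, stimulated Syrian replicate 4 had the largest typical distance from the other arrays of its group and label series (median absolute log2 difference 0.21), followed by naïve GASH/Sal replicate 6 (0.18).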

How the results depend on the processing

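With the label series as a covariate, 0 members passed over all genes in the 5 main comparisons, and this held without the series, with the replicate block, within each series, with the groups of a comparison alone, above the median signal, with every probe set, with median centring or quantile normalisation, with trend and robust, with array weights, for the 53 standard proteins, with rows of several symbols, and with each array left out. In the sound response averaged over strains, 4 members passed in series A alone, where 0.532% of all genes passed as lower and 1.7% as higher, and 1 (Rps12, adjusted p = 0.0482 in limma) without stimulated GASH/Sal replicate 6, a range of 0 to 1 when each array was left out. Of the 4 in series A, Rpl24 and Rps9 were flagged above on naïve Syrian replicate 2, an array of that series. The numbers did not pair the samples. The replicate block left 11 members lower at an unadjusted p under 0.05 in GASH/Sal and changed no call over all genes.

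With each array left out, the GASH/Sal median ran from -0.13 to -0.078, the Syrian from -0.026 to 0.0036, the naïve strain difference from -0.038 to 0.042, the stimulated strain difference from -0.096 to -0.065 and the difference of responses from -0.10 to -0.046. The GASH/Sal median was -0.18 in series B alone. The 11 members lower there became 7 without naïve replicate 6, 17 without naïve replicate 5, 5 without the series covariate, 24 of 76 with rows of several symbols and 73 of 212 with every probe set. The Syrian 7 became 4 without the covariate or in series B and 28 of 212 with every probe set. Of the stimulated strain difference, 5 became 2 without stimulated Syrian replicate 5, 1 in series A, 10 in series B, 3 with median centring, 9 with quantile normalisation and 27 of 212 with every probe set. Of the difference of responses, 3 became 1 without naïve Syrian replicate 1, 8 without naïve GASH/Sal replicate 5, 6 of 76 with rows of several symbols and 17 of 212 with every probe set. Of the naïve strain difference, 3 became 2 without naïve Syrian replicate 2, 6 without naïve Syrian replicate 3, 5 without naïve GASH/Sal replicate 6, 1 in series A and 7 with quantile normalisation. The cause of these changes was not tested. The matching shares of all genes are not given here for these settings. Among the 212 probe sets some were identical in mean and in every difference, as for Rps12, Rpl41, Rpl27, Rpl23a and Rps28. Counts over the 212 therefore repeat some values.

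Large minus small subunit medians in GASH/Sal were 0.057 with every probe set and 0.054 with rows of several symbols. For the stimulated strain difference the value was -0.027 in series A, and for the difference of responses -0.13 in series A and -0.027 with array weights. Members lower in series B numbered 127 of 212 with every probe set, against 1.62% of all probe sets tested. They were 46 of 76 with rows of several symbols (1.1% of all genes) and 38 of 60 with quantile normalisation (1.79%). With each array left out they numbered 26 to 35, against 0.762% to 1.35% of all genes. Of all genes passing, 14.8% were lower in the main fit and 38.4% with quantile normalisation. The mean pairwise correlation ran from 0.073 to 0.16 with each array left out, the lowest without naïve GASH/Sal replicate 6.

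Signs turned for members that were not called. In GASH/Sal these were Rplp0 (0.069), Rplp2 (0.021), Rpl39l (0.017), Rpl7l1 (0.061) and Rps27l (-0.070) in series A, Rpl10l (-0.37) and Rpl32l (0.022) in series B, and Rpl7l1 with array weights (0.025), without naïve replicate 6 (0.011) and without it and stimulated Syrian replicate 4 (0.011). In Syrian hamsters they were Rplp0 (0.28), Rplp1 (-0.066), Rpl10l (-0.024), Rpl3l (-0.14) and Rps27l (-0.022) in series A and Rps4l (0.031) in series B. Scaling turned Rps27l (-0.0013 with median centring, -0.0030 with quantile normalisation) and Rplp1 (-0.075 with quantile normalisation). Array weights turned Rplp0 (0.020), Rplp1 (-0.031) and Rps27l (-0.017), rows of several symbols Rplp0 (0.15), and the absence of both arrays Rplp0 (0.11), Rplp1 (-0.042), Rpl10l (-0.012) and Rps27l (-0.066). Rps15a turned to 0.042 between naïve strains with rows of several symbols. With each array left out, Rpl10l ran from -0.12 to 0.17 and Rpl7l1 from -0.033 to 0.062 in GASH/Sal, and in Syrian hamsters Rpl10l from -0.011 to 0.28, Rplp0 from -0.15 to 0.11, Rplp1 from -0.043 to 0.048, Rps27l from -0.065 to 0.048 and Rps4l from -0.10 to 0.023.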
